A study of Mus musculus with 8 samples.

Results

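The core circadian clock genes were followed in epithelial cells of the mouse distal colon. They are the transcriptional activators Arntl, Clock and Npas2, the repressors Per1, Per2, Per3, Cry1 and Cry2, and the D-box binding output factors Dbp and Tef. The 10 genes were selected by symbol, as a set of clock components, from the 53379 genes listed in each library. They were chosen with earlier results of these data known. All 10 passed the filter on low counts and were among the 14991 genes tested.

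All mice were of the C57BL/6 strain and carried floxed alleles of Rora, the gene of a nuclear receptor. RORaf/f mice carried these alleles without deletion and served as the control genotype, and RORaΔIEC mice lacked Rora in the intestinal epithelium. Each genotype was sampled untreated or after dextran sulfate sodium (DSS), which damages the colonic surface, supplied at 2% (w/v) in drinking water over 5 days with 3 further days of water alone. RNA sequencing gave 8 libraries, 2 in each of the 4 groups. The labels do not name the Cre driver, and they do not state whether replicates came from different animals. The p-values thus reflect the scatter among these libraries alone, and that scatter may be technical. The labels also give no time of day for collection. A difference in the level of a rhythmic transcript and a difference in the timing of its rhythm cannot be told apart here.

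The clock is a transcriptional feedback loop. BMAL1, the product of Arntl, pairs with CLOCK or NPAS2, binds E-box sequences and activates the Per and Cry genes, whose products then repress that same pair. The pair also activates Dbp, Tef and the REV-ERB genes Nr1d1 and Nr1d2. DBP and TEF activate genes that hold D-box sequences, whereas ROR receptors activate and REV-ERB receptors repress Arntl and other genes through a shared element.

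The elements through which this loop acts were read from the 250 bases before each RefSeq transcription start (GRCm38.p6). Such windows were at hand for 9 of the 10 genes, 14 windows in all, since Per2 had no entry. The stretches with a matching element outside any annotated exon are shown 5′ to 3′ on the strand of the gene, with the element in capitals. They lie at chr11:69098763-69098808 (+) for Per1, chr4:151044796-151044890 (-) for Per3, chr10:85185089-85185153 (-) for Cry1, chr2:92434210-92434255 (-) for Cry2 and chr15:81811256-81811301 (+) for an internal start of Tef. The Per1 stretch, too, lies inside the longer GENCODE model of the gene.
Per1: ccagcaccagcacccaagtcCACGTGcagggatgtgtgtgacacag
Per3: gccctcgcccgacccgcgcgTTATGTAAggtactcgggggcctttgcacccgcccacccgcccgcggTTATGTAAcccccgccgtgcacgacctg
Cry1: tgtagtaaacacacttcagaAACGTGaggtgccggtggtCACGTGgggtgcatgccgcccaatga
Cry2: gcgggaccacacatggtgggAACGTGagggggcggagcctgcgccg
Tef: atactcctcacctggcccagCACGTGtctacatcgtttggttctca

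The E-box CACGTG, searched on both strands, lay 166 bases before the start in Per1, 60 bases in Cry1 and 138 bases before the internal start of Tef. It occurred in 6.02% of all 32851 windows of the same length and in 4 of the 14 clock gene windows, 2 of them of Tef. The E-box-like sequence CACGTT, seen on the printed strand as AACGTG, lay 79 bases before the start in Cry1 and 166 bases in Cry2, and was in 3.85% of all windows. The D-box TTATGTAA was found at 205 and 158 bases before the start of Per3. It was in 0.819% of all windows, and 0.0183% held it at least 2 times. The D-box form TTACGTAA, the cores TAGGTCA and TGGGTCA of the ROR and REV-ERB element, and the cAMP response element TGACGTCA were not among the letters of these 14 windows. They occurred in 0.113%, 2.23%, 3.24% and 1.55% of all windows. A match is a stretch of letters and not a shown binding site. Bases after each start and variant forms of these elements were not searched. The lack of a match thus does not show that a gene, Arntl included, lacks such an element.

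The libraries held 15971642 to 20418466 expected counts. Rora itself had few reads. Its counts in the 2 libraries of each group were 12 and 6 in untreated RORaf/f, 4 and 3 in untreated RORaΔIEC, 16 and 14 in DSS RORaf/f, and 8 and 5 in DSS RORaΔIEC. Its genotype difference was -1.10 ± 0.58 (log2, SE, adjusted p = 0.238) without DSS. With DSS it was -1.24 ± 0.45 (adjusted p = 0.0425), a call lost without any of the 8 libraries in turn (values over the alternatives from -2.57 to -0.94, adjusted p up to 0.286). Reads summed over a gene do not show to which exons they belong, so these counts do not test the deletion. Epithelial markers summed to 19800 to 23400 CPM (counts-per-million, scaled between libraries), against 52 to 329 CPM for neutrophil and 48.5 to 171 CPM for macrophage markers. Both of these sums were highest in DSS RORaΔIEC. Cd14, at 39.4 to 112 CPM, made up most of the macrophage sum in each library. Most of the neutrophil sum in untreated libraries came from Ly6g, since 6 and 7 of the 10 markers, by genotype, were at 0 in both libraries. B and plasma cell markers summed to 159 to 217 CPM, nearly all of it Xbp1, which epithelial cells also express. T and NK cell, fibroblast, endothelial, smooth muscle and neuronal or glial markers each summed to at most 11.9 CPM.

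**Figure D1:**
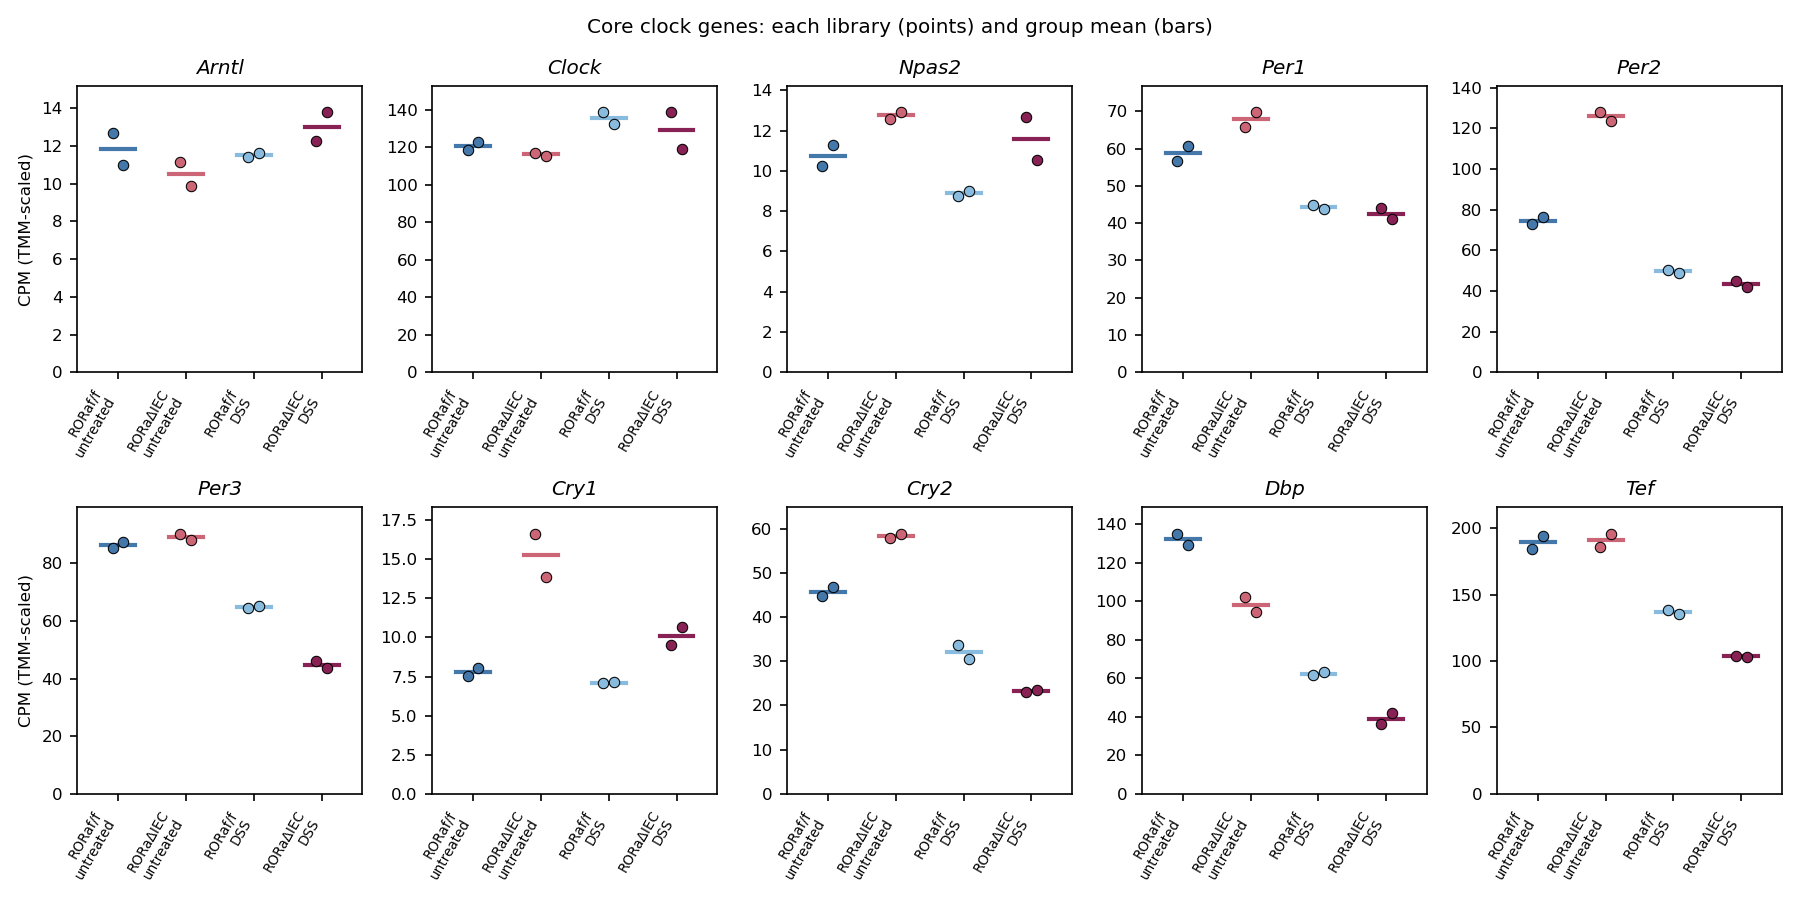
CPM (vertical axis, linear, from 0) of each of the 10 clock genes in the 4 groups of 2 libraries, with points for libraries and bars for group means. Per2 reached 128 and 124 CPM in untreated RORaΔIEC and at most 76.2 CPM elsewhere, whereas Dbp stepped down from 132 to 39.0 CPM on average across the groups as ordered.

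Set on a scale per transcript length, the output factors were the most abundant of the 10 genes. In untreated RORaf/f, the deposited TPM (transcripts-per-million) averaged 127 ± 1.29 (SD, n = 2) for Dbp and 71.1 ± 8.54 for Tef. Per3 followed with 24.4 ± 0.573 TPM. Per1, Clock, Per2 and Cry2 came next, between 15.8 and 17.5 TPM on average, and in that order each overlapped its neighbour. Arntl, Cry1 and Npas2 were the lowest in every group, with means from 3.80 to 7.69 TPM, and Cry1 and Npas2 overlapped in both RORaf/f groups. In untreated RORaΔIEC, Per2 moved to rank 3, with 28.8 ± 0.743 TPM. In both DSS groups Clock held rank 3, with 21.0 ± 1.07 TPM in RORaf/f and 20.4 ± 3.16 TPM in RORaΔIEC. In DSS RORaΔIEC the ranges of Tef (44.4 ± 4.62 TPM) and Dbp (42.2 ± 3.41 TPM) overlapped, while Dbp was above Tef in both libraries of each other group.

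In untreated epithelium, most repressor transcripts, though not Per3, were called higher in RORaΔIEC, and Dbp was called lower. Of the 10 genes, 4 were higher in RORaΔIEC (Per1, Per2, Cry1 and Cry2) and 1 was lower (Dbp), against 15.4% of all genes tested that were called in either direction. The other 5, among them all activators, did not pass the threshold of an adjusted p of 0.05 (edgeR quasi-likelihood test, two-sided, adjusted over all genes tested). The median log2 difference was 0.13 over the 10 genes and 0.01 over all genes. The call of Per1 was lost without untreated RORaf/f library 1 (log2 difference 0.16, adjusted p = 0.225), without untreated RORaΔIEC library 1 (0.25, adjusted p = 0.0623) or without library 2 of that group (0.16, adjusted p = 0.228), and with the DESeq2 Wald test (0.20, adjusted p = 0.146) or effective-length offsets (0.20, adjusted p = 0.169). Over the alternatives Per1 ranged from 0.16 to 0.26 with adjusted p up to 0.228, and 4 or 5 of the 10 genes were called.

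Under DSS the genotype difference had another make-up. Npas2 and Cry1 were higher in RORaΔIEC, while Per2, Per3, Cry2, Dbp and Tef were lower. These 7 of 10 stand beside 39.1% of all genes tested that were called, and the median was -0.13 over the 10 genes against -0.01 over all genes. The call of Per2 was lost without DSS RORaf/f library 1 (-0.18, adjusted p = 0.0997) and without DSS RORaΔIEC library 2 (-0.15, adjusted p = 0.0905), and with the DESeq2 Wald test (-0.20, adjusted p = 0.0689). The call of Npas2 was lost without DSS RORaf/f library 1 (0.36, adjusted p = 0.0822), without library 2 of that group (0.40, adjusted p = 0.0582) and without DSS RORaΔIEC library 1 (0.25, adjusted p = 0.14), and with effective-length offsets (0.19, adjusted p = 0.423) or the DESeq2 Wald test (0.38, adjusted p = 0.124). Over the alternatives Per2 ranged from -0.24 to -0.15 and Npas2 from 0.19 to 0.51, with adjusted p up to 0.0997 and 0.423, and 5 to 7 of the 10 genes were called.

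DSS lowered most repressors and both output factors in each genotype. In RORaf/f, Per1, Per2, Per3, Cry2, Dbp and Tef fell and Clock rose, 7 of 10 genes against 37.2% of all genes tested. The call of Clock was lost by the DESeq2 Wald test, with effective-length offsets, and without either library of untreated RORaf/f, untreated RORaΔIEC or DSS RORaf/f, and its range over the alternatives was 0.13 to 0.20, with an adjusted p of 0.265 at most. In RORaΔIEC the same 6 genes and Cry1 fell and Arntl rose, 8 of 10 genes against 41.6% of all genes tested. The call of Arntl was lost without untreated RORaΔIEC library 2 (0.23, adjusted p = 0.242) and without DSS RORaΔIEC library 2 (0.23, adjusted p = 0.191), with effective-length offsets (adjusted p = 0.074) and by the Wald test of DESeq2 (adjusted p = 0.192), and its range over the alternatives was 0.23 to 0.40. The median log2 change was -0.41 over the 10 genes in RORaf/f and -0.78 in RORaΔIEC, against -0.01 and 0.00091 over all genes. The 4 comparisons share their groups of libraries, so their values are set side by side and are not independent of each other.

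The DSS change differed between the genotypes, by the interaction term, for Per1, Per2, Per3, Cry2 and Tef. All 5 fell further in RORaΔIEC, against 21.4% of all genes tested that were called in either direction, and the median of the 10 genes was -0.34. The call of Per1 was lost by the DESeq2 Wald test, with effective-length offsets, without untreated RORaf/f library 1, without either untreated RORaΔIEC library, without either DSS RORaf/f library and without DSS RORaΔIEC library 2, and its range over the alternatives was -0.32 to -0.22, with an adjusted p of 0.167 at most. Between 4 and 6 of the 10 genes were called over the alternatives.

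**Figure D2:**
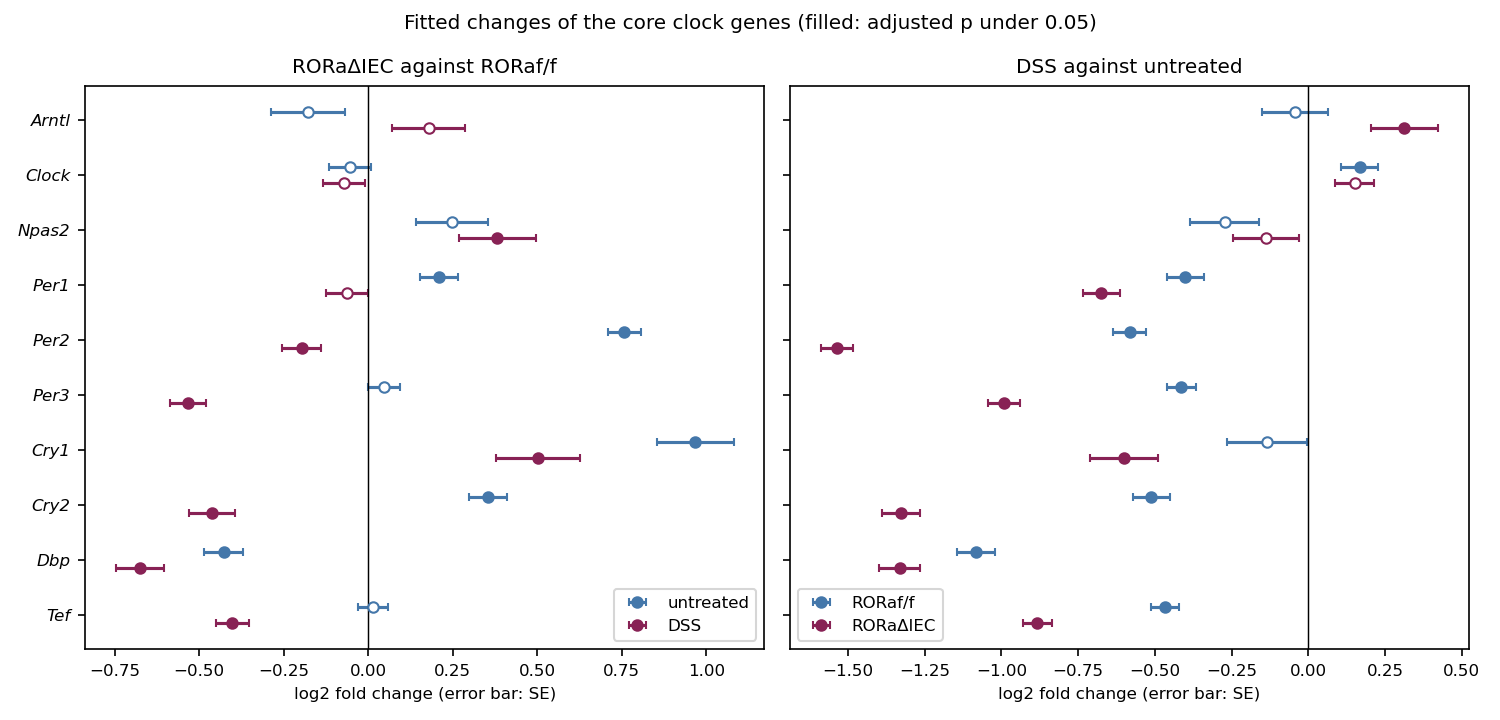
Fitted log2 fold changes (horizontal axes) of the 10 clock genes with SE bars, for RORaΔIEC against RORaf/f without and with DSS (left) and for DSS against untreated in each genotype (right), with filled points at an adjusted p under 0.05. Per2 and Cry2 lie above 0 without DSS and below 0 with DSS on the left, and all 5 repressors lie below 0 on the right.

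Whether groups of 2 libraries overlap is given for each gene as a description, since 59.4% to 70.2% of all genes tested did not overlap in the comparisons of 2 groups. Among the activators, differences were small. Arntl (mm10, GENCODE M21, ENSMUSG00000055116.8, chromosome 7, 113207465 to 113314126, plus strand) encodes BMAL1, the partner shared by CLOCK and NPAS2. It stood at 12.7 and 11.0 CPM in untreated RORaf/f, 11.1 and 9.86 in untreated RORaΔIEC, 11.4 and 11.6 in DSS RORaf/f, and 12.3 and 13.8 in DSS RORaΔIEC. The genotypes overlapped without DSS (-0.18 ± 0.11 on the log2 scale, adjusted p = 0.321) and did not overlap with DSS (0.18 ± 0.11, adjusted p = 0.207), and neither difference passed the threshold. DSS changed Arntl by -0.04 ± 0.11 in RORaf/f (adjusted p = 0.792) and by 0.31 ± 0.11 in RORaΔIEC (adjusted p = 0.034; up to 0.242 without untreated or DSS RORaΔIEC library 2). The difference between these changes was 0.36 ± 0.15 (adjusted p = 0.118), and it passed only without DSS RORaΔIEC library 1 (0.44, adjusted p = 0.0487; up to 0.419 over the alternatives). Between 161 and 253 reads per library lay behind these values.

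Clock (ENSMUSG00000029238.11, chromosome 5, 76209868 to 76304792, minus strand), the gene of a histone acetyltransferase and DNA-binding partner of BMAL1, was the activator with the highest TPM. Its libraries held 119 and 123 CPM in untreated RORaf/f, 117 and 116 in untreated RORaΔIEC, 139 and 132 in DSS RORaf/f, and 139 and 119 in DSS RORaΔIEC. The spread within DSS RORaΔIEC covered nearly the whole range of the gene. Genotype differences were -0.06 ± 0.06 (adjusted p = 0.614) without DSS and -0.07 ± 0.06 (adjusted p = 0.378) with DSS. The latter became -0.18 (adjusted p = 0.00495) without DSS RORaΔIEC library 1 and changed sign, to 0.04, without library 2. DSS gave 0.17 ± 0.06 in RORaf/f (adjusted p = 0.0442), the call that most left-out libraries ended, and 0.15 ± 0.06 in RORaΔIEC (adjusted p = 0.0658), which ranged from 0.04 to 0.26 over the alternatives. It was 0.04 (adjusted p = 0.588) without DSS RORaΔIEC library 1, and it passed without library 2 of that group (0.26, adjusted p = 0.000311) and without the filter on low counts (0.15, adjusted p = 0.0269).

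Npas2 (ENSMUSG00000026077.15, chromosome 1, 39193731 to 39363236, plus strand), the paralog that can stand in for CLOCK, was higher in RORaΔIEC under both treatments by group mean. It had 10.3 and 11.3 CPM in untreated RORaf/f and 12.6 and 12.9 in untreated RORaΔIEC, a difference of 0.25 ± 0.11 that did not pass (adjusted p = 0.146). With DSS it had 8.77 and 9.01 CPM in RORaf/f and 12.7 and 10.5 in RORaΔIEC, a difference of 0.38 ± 0.11 (adjusted p = 0.0154) that several left-out libraries ended. The groups did not overlap at either treatment. The DSS changes were -0.27 ± 0.11 in RORaf/f (adjusted p = 0.0741) and -0.14 ± 0.11 in RORaΔIEC (adjusted p = 0.333). The change in RORaf/f passed when either DSS RORaΔIEC library was left out of the shared fit (adjusted p = 0.0409 and 0.0418; up to 0.771 over the alternatives). The TPM ratio of Npas2 to Clock was 0.229 and 0.226 in untreated RORaf/f and 0.307 and 0.296 in untreated RORaΔIEC, and it lay between 0.161 and 0.241 in the DSS libraries.

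Per2 (ENSMUSG00000055866.9, chromosome 1, 91415982 to 91459324, minus strand) showed the clearest pattern among the period genes, whose products carry the CRY proteins into the nucleus to repress BMAL1. Its libraries held 72.8 and 76.2 CPM in untreated RORaf/f, 128 and 124 in untreated RORaΔIEC, 50.4 and 49.1 in DSS RORaf/f, and 44.8 and 42.0 in DSS RORaΔIEC. No library of any group overlapped with another group. Untreated RORaΔIEC exceeded untreated RORaf/f by 0.76 ± 0.05 on the log2 scale (adjusted p = 2.08e-07), whereas DSS RORaΔIEC was below DSS RORaf/f by a smaller amount (-0.20 ± 0.06, adjusted p = 0.0147; up to 0.0997 without DSS RORaf/f library 1 or DSS RORaΔIEC library 2). DSS changed Per2 by -0.58 ± 0.05 in RORaf/f (adjusted p = 1.5e-06) and by -1.54 ± 0.05 in RORaΔIEC (adjusted p = 1.97e-11). The difference between these changes, -0.95 ± 0.08 (adjusted p = 1.03e-06), was the largest interaction among the 10 genes and lay between -0.997 and -0.907 in every alternative.

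Per1 (ENSMUSG00000020893.17, chromosome 11, 69095217 to 69109960, plus strand), a period gene that also responds to glucocorticoids and cAMP, followed Per2 at smaller size. It had 56.6 and 60.9 CPM in untreated RORaf/f, 65.9 and 69.8 in untreated RORaΔIEC, 45.0 and 43.9 in DSS RORaf/f, and 44.0 and 41.2 in DSS RORaΔIEC. The untreated groups did not overlap (0.21 ± 0.06, adjusted p = 0.0213), while the DSS groups did (-0.06 ± 0.06, adjusted p = 0.45). The untreated call was lost without untreated RORaf/f library 1 or either untreated RORaΔIEC library (adjusted p up to 0.228). DSS changed Per1 by -0.40 ± 0.06 in RORaf/f (adjusted p = 0.000127) and by -0.67 ± 0.06 in RORaΔIEC (adjusted p = 4.55e-07), and both falls passed in every alternative. The interaction was -0.27 ± 0.08 (adjusted p = 0.0323), a call that 6 of the 8 libraries ended when left out.

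Per3 (ENSMUSG00000028957.12, chromosome 4, 151003652 to 151044665, minus strand), a period gene whose D-box pair is shown above (Per2 had no window to search), passed the genotype test under DSS and not without it. It had 85.3 and 87.5 CPM in untreated RORaf/f and 90.4 and 88.0 in untreated RORaΔIEC (0.05 ± 0.05, adjusted p = 0.578), where counting with effective gene lengths turned the sign. With DSS it had 64.7 and 65.1 CPM in RORaf/f and 46.0 and 43.7 in RORaΔIEC, groups that did not overlap (-0.53 ± 0.05, adjusted p = 2.18e-06). The falls under DSS were -0.41 ± 0.05 (adjusted p = 1.55e-05) and -0.99 ± 0.05 (adjusted p = 1.43e-09), and they differed by -0.58 ± 0.07 (adjusted p = 6.22e-05). All 4 of these calls held in every alternative. Camta1, a neighbour that overlaps Per3 on the same strand, had 108 to 219 reads per library against 764 to 1704 for Per3. By counts, Camta1 too was lower in RORaΔIEC under DSS (-0.74 ± 0.11, adjusted p = 0.000133), with 0.15 ± 0.10 without DSS (adjusted p = 0.354). Its DSS changes were -0.15 ± 0.10 in RORaf/f (adjusted p = 0.272) and -1.04 ± 0.11 in RORaΔIEC (adjusted p = 3.2e-06), an interaction of -0.89 ± 0.15 (adjusted p = 0.000897). On the scale per transcript length, Camta1 averaged 8.65, 10.5, 10.2 and 9.4 TPM in untreated RORaf/f, untreated RORaΔIEC, DSS RORaf/f and DSS RORaΔIEC. There its DSS libraries overlapped, at 10.6 and 9.8 TPM in RORaf/f and 10.5 and 8.31 TPM in RORaΔIEC. No alternative was examined for Camta1. Whether the counting shared reads between Per3 and Camta1 was not tested.

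The cryptochromes encode the strongest repressors of the BMAL1 pair, and the 2 genes parted under DSS. Cry1 (ENSMUSG00000020038.10, chromosome 10, 85131700 to 85185064, minus strand) had 7.56 and 8.07 CPM in untreated RORaf/f and 16.7 and 13.9 in untreated RORaΔIEC. That difference of 0.97 ± 0.11 (adjusted p = 5.32e-05) was the largest by genotype among the 10 genes. With DSS, Cry1 had 7.09 and 7.12 CPM in RORaf/f and 9.49 and 10.6 in RORaΔIEC, again without overlap (0.50 ± 0.13, adjusted p = 0.00563). Both genotype calls held in every alternative. DSS changed Cry1 by -0.13 ± 0.13 in RORaf/f (adjusted p = 0.448) and by -0.60 ± 0.11 in RORaΔIEC (adjusted p = 0.000533). The difference between these changes did not pass (-0.46 ± 0.17, adjusted p = 0.0684), except without untreated RORaΔIEC library 2 (-0.59, adjusted p = 0.0432; up to 0.307 over the alternatives). Cry1 rested on 118 to 262 reads per library.

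Cry2 (ENSMUSG00000068742.11, chromosome 2, 92403646 to 92434043, minus strand) had 44.8 and 46.7 CPM in untreated RORaf/f and 57.9 and 58.9 in untreated RORaΔIEC, a rise of 0.35 ± 0.06 (adjusted p = 0.000668). With DSS the order was turned round, with 33.6 and 30.6 CPM in RORaf/f and 23.0 and 23.6 in RORaΔIEC (-0.46 ± 0.07, adjusted p = 1e-04). None of the groups overlapped. DSS changed Cry2 by -0.51 ± 0.06 in RORaf/f (adjusted p = 1.89e-05) and by -1.33 ± 0.06 in RORaΔIEC (adjusted p = 6.25e-10), an interaction of -0.82 ± 0.09 (adjusted p = 2.15e-05). All 5 calls of Cry2 held in every alternative. D930015M05Rik, which overlaps Cry2 on the opposite strand, had 2 to 15 reads per library against 399 to 962 for Cry2. It was called higher in untreated RORaΔIEC (2.20 ± 0.58, adjusted p = 0.0203). Under DSS it was called lower within RORaΔIEC (-1.45 ± 0.53, adjusted p = 0.0414), and the remaining comparisons did not call it. Whether the counting shared reads between Cry2 and D930015M05Rik was not tested. The TPM ratio of Cry2 to Cry1 was highest in untreated RORaf/f and lowest in DSS RORaΔIEC. It was 4.31 and 3.81 in untreated RORaf/f, 2.33 and 3.12 in untreated RORaΔIEC, 3.29 and 3.05 in DSS RORaf/f, and 1.69 and 1.48 in DSS RORaΔIEC.

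Dbp (ENSMUSG00000059824.12, chromosome 7, 45705088 to 45710203, plus strand), the gene of a PAR-type bZIP factor whose gene is a classic direct target of the BMAL1 pair, was lower in RORaΔIEC at both treatments. Its libraries held 135 and 129 CPM in untreated RORaf/f, 102 and 94.4 in untreated RORaΔIEC, 61.5 and 63.1 in DSS RORaf/f, and 36.1 and 41.9 in DSS RORaΔIEC, with no overlap between any of the groups. The genotype differences were -0.43 ± 0.06 without DSS (adjusted p = 0.000192) and -0.68 ± 0.07 with DSS (adjusted p = 3.56e-06). DSS changed Dbp by -1.08 ± 0.06 in RORaf/f (adjusted p = 9.73e-09) and by -1.33 ± 0.07 in RORaΔIEC (adjusted p = 1.16e-09), and these 4 calls held in every alternative. The interaction did not pass (-0.25 ± 0.09, adjusted p = 0.0699), except without the filter on low counts (adjusted p = 0.0447) and without DSS RORaΔIEC library 2 (-0.36, adjusted p = 0.00676; up to 0.261 over the alternatives). Sphk2, which overlaps Dbp on the opposite strand, had 1204 to 1614 reads per library. Since the strand setting of the counting is not given, reads of the shared stretch cannot be assigned. Sphk2 differed by 0.02 ± 0.05 (adjusted p = 0.853) and -0.13 ± 0.06 (adjusted p = 0.0681) between genotypes without and with DSS. Its DSS changes were -0.08 ± 0.05 in RORaf/f (adjusted p = 0.257) and -0.24 ± 0.06 in RORaΔIEC (adjusted p = 0.00312).

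Tef (ENSMUSG00000022389.14, chromosome 15, 81802421 to 81826863, plus strand, from another version of this identifier), a relative of Dbp that binds the same D-box, did not pass the genotype test without DSS, where the groups overlapped, with 184 and 195 CPM in RORaf/f and 186 and 196 in RORaΔIEC (0.01 ± 0.05, adjusted p = 0.879). With DSS it had 139 and 135 CPM in RORaf/f and 104 and 103 in RORaΔIEC, which did not overlap (-0.40 ± 0.05, adjusted p = 1.36e-05). The falls under DSS were -0.47 ± 0.05 in RORaf/f (adjusted p = 2.91e-06) and -0.88 ± 0.05 in RORaΔIEC (adjusted p = 2.16e-09). Their difference was -0.42 ± 0.07 (adjusted p = 0.000542), and these 4 calls held in every alternative.

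Ratios within a library set the output and repressor genes against Arntl without scaling between libraries. The TPM ratio of Dbp to Arntl was 20.5 and 24.5 in untreated RORaf/f, 18.7 and 19.0 in untreated RORaΔIEC, 11.5 and 11.0 in DSS RORaf/f, and 5.86 and 5.87 in DSS RORaΔIEC. The 4 groups did not overlap in this ratio. Per2 to Arntl was highest in untreated RORaΔIEC, at 5.37 and 5.74, against 2.56 and 3.34 in untreated RORaf/f. It was 2.08 and 1.96 in DSS RORaf/f and 1.66 and 1.36 in DSS RORaΔIEC. Dbp to Tef was 1.96 and 1.63 in untreated RORaf/f, 1.41 and 1.22 in untreated RORaΔIEC, 1.16 and 1.23 in DSS RORaf/f, and 0.835 and 1.09 in DSS RORaΔIEC, so that untreated RORaΔIEC and DSS RORaf/f overlapped. These ratios were not tested.

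**Figure D3:**
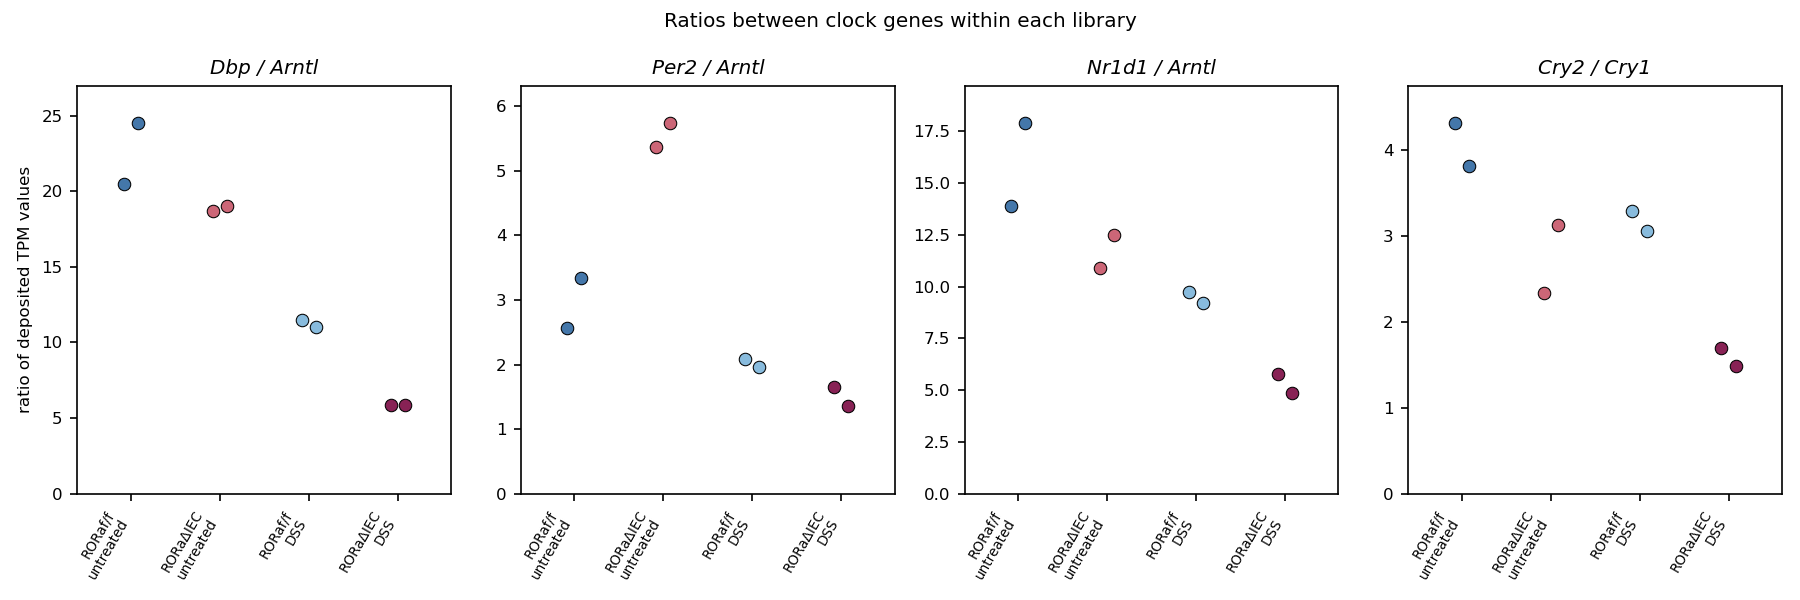
Ratio of deposited TPM values (vertical axes, linear, from 0) between pairs of clock genes in each of the 8 libraries, with 1 point per library in the 4 groups. Dbp to Arntl was lowest in DSS RORaΔIEC, at 5.86 and 5.87, and Per2 to Arntl was highest in untreated RORaΔIEC, at 5.37 and 5.74.

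The 10 genes moved beside other changes in these libraries. Summed over the 10 genes, expression was 728 and 748 CPM in untreated RORaf/f, 787 and 783 in untreated RORaΔIEC, 560 and 547 in DSS RORaf/f, and 471 and 450 in DSS RORaΔIEC. Of 12 proliferation genes, 12 were higher in RORaΔIEC at each treatment, and their sum was 517 to 590 CPM in RORaf/f, 853 and 863 in untreated RORaΔIEC, and 1190 and 1130 in DSS RORaΔIEC. Of 9 neutrophil markers tested, 9 were higher in DSS RORaΔIEC than in DSS RORaf/f, as were 6 of 10 macrophage markers. In DSS RORaΔIEC these 2 lists reached 304 and 329 CPM and 161 and 171 CPM, and the mitochondrial share of counts was 5.29% and 4.91% against 7.23% to 8.05% elsewhere. Of 13 immediate-early genes, which respond within minutes to stimuli and tissue handling, 9 were lower in untreated RORaΔIEC, while 5 were higher and 3 lower in DSS RORaΔIEC. DSS lowered 11 in RORaf/f, lowered 8 and raised 2 in RORaΔIEC, and the interaction called 7 higher and 1 lower. All 7 glucocorticoid-induced genes fell under DSS in each genotype, and 4 were higher and 2 lower in untreated RORaΔIEC. In DSS RORaΔIEC 2 were higher and 2 lower, and the interaction called 2 higher and 3 lower. This list includes Per1 and shares Dusp1 with the immediate-early genes. It also shares Tsc22d3 and Klf9 with the clock output genes described below. The fall of Klf9 in RORaf/f (-0.19, adjusted p = 0.0388) held in only 6 of 14 alternatives, being lost by the DESeq2 Wald test, with effective-length offsets and without either library of untreated RORaf/f, untreated RORaΔIEC or DSS RORaf/f (values from -0.23 to -0.15, adjusted p at most 0.226). The shares of all genes called in these comparisons are those given with the 10 genes. What part these changes had in the clock gene results was not tested. In bulk RNA, fewer cells that express a gene and less RNA per cell cannot be told apart.

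The wider clock was described with 20 further genes, of which Rorb, Bhlhe41, Hlf and Fbxl21 had too few counts for a test. In the untreated genotype comparison 1 of the 16 tested was higher and 2 were lower, with a median of 0.03, a share near the 15.4% called over all genes. With DSS 4 were higher and 6 lower, against 39.1% of all genes. DSS itself raised 2 and lowered 8 in RORaf/f (37.2% of all genes called), and raised 3 and lowered 9 in RORaΔIEC (41.6%). The interaction called 3 in each direction (21.4% of all genes). The untreated count dropped from 3 to 1 without untreated RORaΔIEC library 1, and from 10 to 6 for the DSS genotype comparison without DSS RORaf/f library 2, by the DESeq2 Wald test or with effective-length offsets. The interaction count dropped from 6 to 3 without untreated RORaf/f library 1, without its library 2 or without untreated RORaΔIEC library 1, and to 2 with effective-length offsets.

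The genes of the REV-ERB receptors, which repress Arntl, were both lower under DSS in each genotype and in RORaΔIEC under DSS, and without DSS only Nr1d1 passed the genotype test. The 2 genes were not tested against each other. Nr1d1 averaged 171 ± 6.08, 113 ± 3.28, 96.9 ± 2.28 and 63.8 ± 1.87 CPM (SD, n = 2) in untreated RORaf/f, untreated RORaΔIEC, DSS RORaf/f and DSS RORaΔIEC. It was lower in RORaΔIEC, with a log2 difference of -0.60 ± 0.05 both without DSS (adjusted p = 1.48e-06) and with DSS (adjusted p = 5.33e-07). DSS changed it by -0.82 ± 0.05 in RORaf/f (adjusted p = 1.23e-08) and by the same rounded value in RORaΔIEC (adjusted p = 1.09e-08), and the interaction was -0.01 (adjusted p = 0.959). Nr1d2 averaged 145 ± 0.597, 138 ± 4.51, 123 ± 0.496 and 90.4 ± 3.91 CPM. Its genotype difference was -0.08 without DSS (adjusted p = 0.3) and -0.45 ± 0.05 with DSS (adjusted p = 4.88e-06), with an interaction of -0.37 ± 0.07 (adjusted p = 0.00142). DSS changed Nr1d2 by -0.24 ± 0.05 in RORaf/f (adjusted p = 0.00117) and by -0.60 ± 0.05 in RORaΔIEC (adjusted p = 1.46e-07).

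Ciart, a repressor that binds the BMAL1 pair, had 389 and 353 reads in untreated RORaf/f, 318 and 356 in untreated RORaΔIEC, 122 and 118 in DSS RORaf/f, and 115 and 104 in DSS RORaΔIEC. It changed by -1.46 ± 0.10 (adjusted p = 4.57e-08) and -1.74 ± 0.10 (adjusted p = 4e-09) under DSS. Bhlhe40, an E-box repressor, changed under DSS by -0.30 ± 0.04 in RORaf/f (adjusted p = 9.85e-05) and -0.19 ± 0.04 in RORaΔIEC (adjusted p = 0.00269), and was higher in RORaΔIEC under DSS (0.20 ± 0.04, adjusted p = 0.00219), a call lost with effective-length offsets (adjusted p up to 0.122). Arntl2, a paralog of Arntl, rose under DSS by 1.40 ± 0.25 in RORaf/f (adjusted p = 0.000623, up to 0.12 over the alternatives) and by 1.80 ± 0.24 in RORaΔIEC (adjusted p = 3.26e-05). Its genotype difference with DSS (0.54 ± 0.20, adjusted p = 0.0494) held in only 2 of 14 alternatives, and ranged from 0.23 to 0.80, with an adjusted p of 0.451 at most.

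Nfil3 encodes a repressor that competes with DBP and TEF at the D-box. It had 21 and 24 reads in untreated RORaf/f, 11 and 20 in untreated RORaΔIEC, 30 and 25 in DSS RORaf/f, and 80 and 73 in DSS RORaΔIEC. It was higher in RORaΔIEC under DSS by 1.42 ± 0.24 (adjusted p = 0.000285), and DSS raised it in RORaΔIEC by 2.18 ± 0.27 (adjusted p = 1.32e-05). Its interaction of 1.72 ± 0.41 (adjusted p = 0.00872) was lost without untreated RORaf/f library 2 (adjusted p = 0.0516). Thus in DSS RORaΔIEC, Dbp and Tef were at their lowest of the 4 groups and Nfil3 at its highest. Macrophage and neutrophil markers were also at their highest there, and whether Nfil3 reads came from epithelial cells was not tested.

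**Figure D4:**
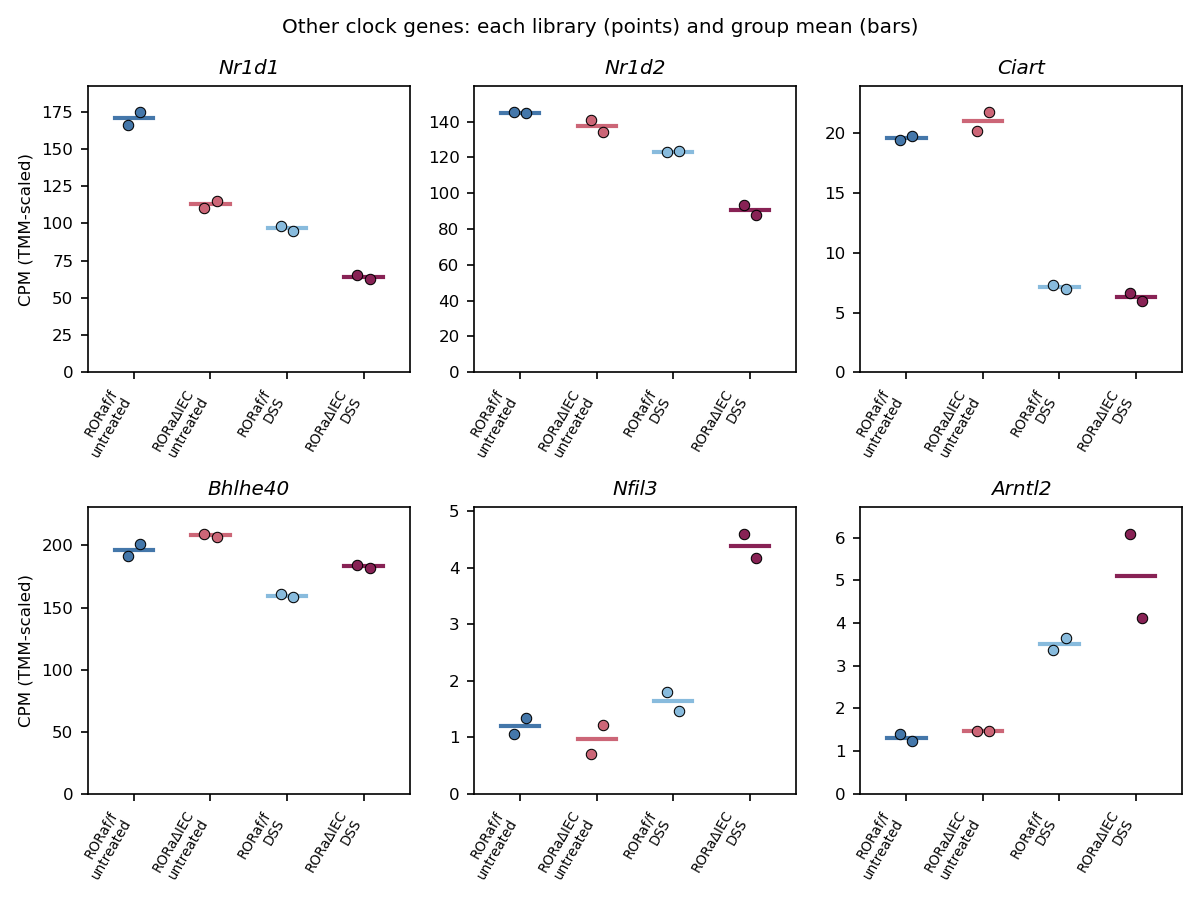
CPM (vertical axis, linear, from 0) of 6 further clock genes in the 4 groups of 2 libraries, with points for libraries and bars for group means. Nr1d1 stepped down from 171 to 63.8 CPM on average across the groups as ordered, and Ciart was lower in all 4 DSS libraries than in all 4 untreated ones.

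Timeless, a clock and replication-fork gene, was higher in RORaΔIEC by 0.49 ± 0.09 without DSS (adjusted p = 0.00219) and by 1.20 ± 0.11 with DSS (adjusted p = 1.46e-06), and changed under DSS by -1.20 ± 0.11 in RORaf/f (adjusted p = 1.81e-06) and -0.49 ± 0.09 in RORaΔIEC (adjusted p = 0.000658). Its untreated call was lost without untreated RORaΔIEC library 1 (adjusted p = 0.0568), and its interaction (0.71 ± 0.15, adjusted p = 0.00383) with effective-length offsets (adjusted p = 0.197). The proliferation genes given above moved with it between genotypes. Kinases and ubiquitin ligase parts set the stability of PER and CRY proteins. Csnk1a1, a casein kinase, rose under DSS by 0.16 ± 0.04 (adjusted p = 0.0039) and 0.18 ± 0.04 (adjusted p = 0.00155) in the 2 genotypes. Csnk1e and the ligase parts Btrc and Fbxw11 had differences of at most 0.43 on the log2 scale whose calls were lost in 1 or more alternatives.

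Genes known as clock outputs did not move as a block. Of 11 such genes, all tested, 5 were higher and 1 lower in untreated RORaΔIEC, and 6 were higher and 1 lower in DSS RORaΔIEC. DSS lowered 8 and raised 2 in RORaf/f, and lowered 7 and raised 2 in RORaΔIEC. The interaction called 1 higher and 3 lower, a count of 4 that became 7 without DSS RORaΔIEC library 1, 2 with effective-length offsets and 1 by the DESeq2 Wald test. Over all genes tested, 15.4%, 39.1%, 37.2%, 41.6% and 21.4% were called in these comparisons, in the order given. Wee1, a cell cycle kinase with E-boxes in its promoter, changed under DSS by -0.82 ± 0.09 (adjusted p = 5.34e-06) and -0.96 ± 0.09 (adjusted p = 5.84e-07) in RORaf/f and RORaΔIEC. Noct, the gene of the rhythmic protein nocturnin, was higher in untreated RORaΔIEC (0.31 ± 0.05, adjusted p = 0.000937) and changed by -0.46 ± 0.05 (adjusted p = 2.01e-05) and -0.83 ± 0.05 (adjusted p = 1.87e-08) under DSS. By group mean it ordered the groups as Per2 did, though its DSS groups lay close, at 37.9 ± 1.18 CPM in RORaf/f and 36.2 ± 1.43 CPM in RORaΔIEC. Usp2, a ubiquitin protease gene under clock control, changed by -1.02 ± 0.07 (adjusted p = 1.02e-07) and -0.61 ± 0.07 (adjusted p = 5.05e-06), and was higher in RORaΔIEC under DSS by 0.59 ± 0.08 (adjusted p = 3.18e-05). These output genes were picked for description after their values were seen.

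The genes whose log2 CPM ran most like Per2, Dbp and Arntl over the 8 libraries were ranked among the 9854 genes that averaged 5 CPM or more. Likeness is Pearson's r, given as a description, since the 8 libraries fall into 4 groups that share treatment and genotype. Per2 ran closest to Ezr (r = 0.998), Myo15b (0.993) and Diaph1 (0.991), and opposite to Cbr2 (-0.999), Ddit4 (-0.992) and Dll4 (-0.989). Ezr, the gene of the microvillus linker ezrin, averaged 873, 1110, 696 and 663 CPM in untreated RORaf/f, untreated RORaΔIEC, DSS RORaf/f and DSS RORaΔIEC. Dbp ran closest to Maoa (0.999), Txnip (0.997) and Ggh (0.995), and opposite to Man1a2 (-0.996), Dcp2 (-0.995) and Scd2 (-0.995). Maoa, the gene of monoamine oxidase A, averaged 783, 714, 615 and 526 CPM in the same order of groups. Arntl, whose own range was narrow, ran closest to Sdhd (0.955), Asf1a (0.955) and Sec22a (0.952), and opposite to Zfp518a (-0.988), Vps13a (-0.947) and Map3k1 (-0.942).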

How the data were processed

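RNA sequencing of distal colon epithelial cells gave 1 table per library, for 8 libraries in 4 groups of 2 taken from the labels. The deposited tables hold RSEM expected counts, TPM and FPKM per gene, per the file headers, along with gene and effective lengths. The submitters' processing notes name mm10 as the build, RSEM 1.3.0, STAR 2.5.3a and also DESeq2 1.18.1. Options, annotation release and strand setting are not given in the sources used here. The authors' expected counts share reads between genes they fit, and 9.17% to 9.75% of genes had a value that was not whole, so these counts were rounded. The authors' TPM values were used for levels per length only, and the deposited FPKM values were not used.

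In R 4.3.3, genes were filtered with the default filterByExpr rule and scaled with TMM in edgeR 4.0.16. The 8 libraries entered a single quasi-likelihood fit, with 1 mean for each group (4 residual degrees of freedom). Tests were two-sided, with Benjamini-Hochberg adjustment over all 14991 genes within each of 5 comparisons and a threshold of 0.05. The SE was taken from the log2 fold change and the F statistic (its size over the root of F). Library totals of 15971642 to 20418466 set the counting error, and replicates differed by more than that (chi-square per degree of freedom 1.29 to 5.23). The value was 5.23 in DSS RORaΔIEC and at most 2.23 in the other groups, though all groups shared the single fit. The scripts were tested on simulated data holding known changes.

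The 10 genes, the other lists and the markers were chosen with earlier results of these data known. Genes were named as follows: the 10 clock genes always, Rora, Nr1d1 and Nr1d2 always, other listed clock genes past the threshold (some are not reported here, though counts include them), and the 3 genes most and least like Arntl, Per2 and Dbp (log2 CPM with a prior count of 2). Alternatives were RLE scaling, no filter, the DESeq2 1.42.0 Wald test, offsets from the deposited effective gene lengths (effective-length offsets), a fit of only the libraries compared, a replicate block, and leaving out each library. Gene positions and overlaps came from GENCODE M21 for mm10, and promoter sequences from RefSeq (GRCm38.p6).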

Additional observations from a re-analysis of the deposited data

Results flagged for a closer look

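The change under DSS differed between RORaΔIEC and RORaf/f by the interaction test (edgeR, adjusted over all genes) for 5 of the 10 clock genes, against 21.4% of all genes tested. The log2 change in RORaΔIEC minus that in RORaf/f was -0.95 for Per2, -0.82 for Cry2, -0.58 for Per3, -0.42 for Tef and -0.27 for Per1. Per2 and Cry2 were above RORaf/f without DSS and below it with DSS, whereas Per3 and Tef did not pass the genotype test without DSS and were below RORaf/f with DSS. Of the other clock genes tested, the same term was -0.37 for Nr1d2 and -0.43 for Csnk1e, and it was 1.72 for Nfil3, 0.71 for Timeless and 0.23 for Fbxw11. The calls of Per1, Nfil3, Timeless, Csnk1e and Fbxw11 were lost in 1 or more alternatives. Csnk1e moved to -0.29 at its smallest.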

How the results depend on the processing

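Only 2 libraries per group limit all results. Counts of called clock genes stayed within 1.5 times of the values given in every alternative. The numbers of all genes called did not. With the DESeq2 Wald test 1246, 3801, 3409 and 1684 genes were called for genotype without DSS, genotype with DSS, DSS in RORaf/f and the interaction, and with effective-length offsets 1290 and 1794 for the first and the last of these. Leaving out 1 library gave 953 to 3174 genes for genotype without DSS, 4093 to 6182 with DSS, 3659 to 6426 for DSS in RORaf/f, 4603 to 6263 for DSS in RORaΔIEC and 1891 to 4444 for the interaction.

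Signs turned only for results that were not called, apart from Csnk1e. Without the filter on low counts Tef (untreated genotype) became -0.00156 and Nr1d1 (interaction) 0.00785. With effective-length offsets Per3 (untreated genotype) became -0.0396, Npas2 (interaction) -0.177, Nr1d1 (interaction) 0.000364 and Csnk1e (genotype with DSS) 0.000502. Leaving out 1 library gave -0.0275 to 0.0509 for Tef (untreated genotype), -0.184 to 0.0355 for Clock (genotype with DSS), -0.139 to 0.0663 for Arntl (DSS in RORaf/f), and, for the interaction, -0.128 to 0.0918 for Clock, -0.000798 to 0.264 for Npas2 and -0.0426 to 0.0302 for Nr1d1. The cause was not tested.

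Nothing in the labels says whether replicate numbers pair the samples. Deviations of same-numbered libraries from their group means correlated at -0.11 to 0.077 between groups. With 2 libraries per group this cannot exclude a pairing. A replicate block called 5, 7, 7, 8 and 5 clock genes in the 5 comparisons, and 2186, 5791, 5449, 6142 and 3085 of all genes. The alternatives for the other clock and output genes were added after seeing the data.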
